A study of Homo sapiens with 11 samples.

Results

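The B7 family of immune checkpoint ligands was followed in RT4 cells, an established line from a human bladder papilloma, grown on plastic or on Matrigel. Matrigel is a basement membrane gel made by tumour cells and stands here for a cancer-remodeled extracellular matrix (crECM). The members were CD274, PDCD1LG2, CD86, CD80 and CD276, and every probe with the single symbol of a member was taken. That gave 5 probes, 1 for each gene, among 22464 probes on the array, of which 17043 had a single symbol, standing for 14941 genes. The genes were chosen by their deposited log10 values on plastic and crECM, so their values in that contrast are a description with no test. All 5 probes were above the noise threshold on at least 2 arrays.

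The B7 ligands are membrane proteins with immunoglobulin domains that T cells read beside the antigen. CD80 and CD86 are the ligands of the activating receptor CD28 and of its inhibitory counterpart CTLA4. CD274 (PD-L1) and PDCD1LG2 (PD-L2) bind the inhibitory receptor PD-1. CD276 (B7-H3) is carried by many tumours and its receptor is not settled. CD80 and CD86 are best known from antigen presenting cells, and PD-L1 is known in bladder cancer as a target of blocking antibodies. Interferon gamma raises PD-L1 through JAK kinases and IRF1.

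Cy3-labeled cDNA had been hybridized to 2 arrays for cells on plastic, replicates 1 and 2, and to 9 arrays for cells on crECM, 1 for each harvest at 12 h and on days 1, 2, 3, 4, 6, 7, 8 and 9. All were RT4 cells with no added agent or altered gene. The crECM cells lay on gel in culture inserts, in McCoy's medium with fetal calf serum below, and were freed with a gel-dissolving solution. The time on plastic is not given, the label of plastic replicate 2 adds the words Matrigel next, and no source says that the plastic arrays came from separate cultures, so their spread may be technical. Since each crECM time has 1 array, no 2 single days can be tested against each other, and the spread over the 9 arrays mixes time with array error.

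Values are given as deposited, on a log10 scale of SDs of the noise peak, so that 1 stands for a deposited 10 SD and 0 for 1 SD. The regression between arrays followed that scaling, so a deposited SD is not the noise SD of its own array. Against log10 raw intensity above the zero point, deposited values had slopes of 0.69 and 0.67 on plastic and 0.92 to 1.29 on crECM. A probe counted as above noise at 3 SD and as off-on when its mean was below 0 on plastic and above 1 on crECM. A probe at or under the zero point of its array had been given the lowest value of that array, which was -2.51 and -2.39 on the plastic arrays and -3.52 to -5.98 on the crECM arrays. Means below 0 are set largely by this assigned value. The plastic arrays were dimmer than the crECM arrays before adjustment, with median raw intensities of 162 and 140.4 against 224 to 482, and growth surface and array handling cannot be told apart. Of 16 urothelial and epithelial markers, 15 were above 3 SD on both plastic arrays and 12 on all crECM arrays, while the uroplakin UPK1B was below 0 on all crECM arrays. Of 17 leukocyte markers, 13 were above 3 SD on both plastic arrays and 13 on all crECM arrays, and CD3D, CSF1R and LYZ were at the lowest value on both plastic arrays. On single arrays 83.9% to 86.6% of all probes were above 3 SD.

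Promoters are shown for CD274, CD86 and CD80, since these ligands differ in the motifs just before their starts. RefSeq (GRCh38.p14) held entries for 4 of the 5 members. The stretches are the 250 bases before a start, 5′ to 3′ on the strand of the gene, with motif matches on either strand in capitals. CD274 lies at chr9:5450292-5450541 on the plus strand, CD86 has starts behind chr3:122055112-122055361 and chr3:122077534-122077783 on the plus strand, and CD80 lies at chr3:119559615-119559864 on the minus strand.
CD274: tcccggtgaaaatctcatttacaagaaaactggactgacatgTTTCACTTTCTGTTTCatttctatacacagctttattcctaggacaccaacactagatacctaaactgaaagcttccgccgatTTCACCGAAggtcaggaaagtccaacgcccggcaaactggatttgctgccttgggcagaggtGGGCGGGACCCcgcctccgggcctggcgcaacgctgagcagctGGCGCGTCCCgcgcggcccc
CD86, first start: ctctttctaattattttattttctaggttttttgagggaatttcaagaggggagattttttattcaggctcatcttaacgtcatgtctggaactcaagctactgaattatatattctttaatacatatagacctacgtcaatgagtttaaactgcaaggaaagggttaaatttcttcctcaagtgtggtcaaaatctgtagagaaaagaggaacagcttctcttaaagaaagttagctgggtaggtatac
CD86, second start: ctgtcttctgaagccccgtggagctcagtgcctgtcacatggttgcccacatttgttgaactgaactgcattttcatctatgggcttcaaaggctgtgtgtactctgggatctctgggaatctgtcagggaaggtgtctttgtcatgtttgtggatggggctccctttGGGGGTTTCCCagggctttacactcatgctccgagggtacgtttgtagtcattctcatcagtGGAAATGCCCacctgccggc
CD80: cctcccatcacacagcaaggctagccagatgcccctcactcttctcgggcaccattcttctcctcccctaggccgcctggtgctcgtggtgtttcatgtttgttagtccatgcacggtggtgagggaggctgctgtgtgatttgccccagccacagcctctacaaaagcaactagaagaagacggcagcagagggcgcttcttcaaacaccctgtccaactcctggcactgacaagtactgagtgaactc
Motifs were searched as GGGNNNNNCC for NF-kB, TTCNNNGAA for the STAT site called GAS, GAAANNGAAA for the interferon element ISRE, TGANTCA for AP-1 and TATAAA for the TATA box, on both strands. CD274 held 6 matches. Among them were 2 overlapping ISRE matches on the minus strand, 208 and 202 bases before the start, and the GAS match TTCACCGAA 125 bases before it. Its NF-kB matches began 63, 62 and 20 bases before the start, and the first 2 of them overlap. The second start of CD86 held NF-kB matches alone, 3 of them overlapping at 82 and 81 bases before the start and 1 at 20 bases. The first start of CD86 and the start of CD80 held none of the 5 motifs. CD276, with 2 starts and GC contents of 80.8% and 77.2%, held 14 and 5 NF-kB matches and no other motif. Of 35116 promoters of the same length, 54.4% held the NF-kB letters, 6.57% the GAS letters, 3.02% the ISRE letters, 6.57% the AP-1 letters and 10.7% the TATA letters. A match in these letters is a description and not a bound site.

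CD274, the ligand that engages PD-1 on T cells, was at the lowest value of the array on plastic, -2.51 and -2.39 (log10). On crECM it was 1.28 at 12 h, 1.19 on day 1, 1.17 on day 2, 1.23 on day 3, 1.12 on day 4, 1.26 on day 6, 1.09 on day 7, 1.16 on day 8 and 1.16 on day 9. All 9 crECM arrays were above 1 and above both plastic arrays, and the highest was already the 12 h array. Their mean was 1.18 ± 0.063 (SD, n = 9), and the highest and lowest crECM values were 1.56-fold apart. Before any adjustment the raw intensities of CD274 were -10.8 and -21 on plastic, under the zero point of either array, and 141 to 381 on crECM. With values under 3 SD set to 3 SD, CD274 was at least 5.1-fold higher on crECM (log2 difference 2.35).

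PDCD1LG2, the second ligand of PD-1, was also at the lowest value on both plastic arrays, -2.51 and -2.39. On crECM it was 0.777 at 12 h, 1.25 on day 1, 1.22 on day 2, 1.31 on day 3, 1.44 on day 4, 1.39 on day 6, 1.23 on day 7, 1.21 on day 8 and 1.10 on day 9. The 12 h array was the lowest of the series and the only one under 1, and day 4 was the highest. The mean on crECM was 1.21 ± 0.19 (SD, n = 9), the highest and lowest crECM values were 4.56-fold apart, and no crECM array overlapped plastic. Raw intensities were 3 and -31.8 on plastic, and 88.8 at 12 h against 187 to 486 on the later days. With the floor at 3 SD the difference was at least 5.43-fold (log2 2.44).

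CD86, a ligand of CD28 and CTLA4, was at 0.0025 on the first plastic array, which is 1.01 SD and under the noise threshold, and at the lowest value, -2.39, on the other. On crECM it was 1.29 at 12 h, 1.28 on days 1, 2 and 3, 1.31 on day 4, 1.23 on day 6, 1.14 on day 7, 1.28 on day 8 and 1.24 on day 9. All 9 arrays were above 1 and above both plastic arrays, and the mean was 1.26 ± 0.051 (SD, n = 9), the lowest SD of the 5 members. CD86 was at least 6.06-fold higher on crECM with the floor at 3 SD (log2 2.60), and its raw intensities were 5.7 and -20.7 on plastic and 157 to 415 on crECM.

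CD80, the other ligand of CD28 and CTLA4, was above noise on plastic by the deposited values, at 1.31 and 0.80. As SDs above the zero point with no regression, CD80 was at 3.79 and 0.566 on plastic, the second under the noise threshold. On crECM it was 1.35 at 12 h, 1.54 on day 1, 1.45 on day 2, 1.46 on day 3, 1.41 on day 4, 1.22 on day 6, 1.32 on day 7, 1.45 on day 8 and 1.37 on day 9. The day 6 array lay between the plastic arrays, and the other 8 crECM arrays lay above both. The plastic arrays differed 3.20-fold from each other, more than the highest and lowest crECM arrays did (2.09-fold). The mean on crECM was 1.40 ± 0.094 (SD, n = 9) and the fold over plastic was 2.20 (log2 1.14), but 1.23 without plastic replicate 2 and 3.93 without plastic replicate 1. The size of the CD80 difference therefore rests on which plastic array is used.

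CD276 was at 0.606 on the first plastic array, a deposited 4.04 SD, and at the lowest value, -2.39, on the other. With no regression CD276 was 0.383 SD above the zero point on the first plastic array, under the noise threshold. On crECM it was 1.23 at 12 h, 0.631 on day 1, 0.864 on day 2, 1.04 on day 3, 0.983 on day 4, -1.27 on day 6, the lowest value of the array, -3.52, on day 7, 1.33 on day 8 and 0.918 on day 9. It was thus under noise on 2 neighbouring days, 6 and 7, and above 1 on 3 of the 9 arrays. The groups overlapped, with 7 of 9 crECM arrays above both plastic arrays. Its mean on crECM was 0.245 ± 1.6 (SD, n = 9), a spread that comes from days 6 and 7, where raw intensities were 44.5 and 21.4 against 148 to 357 on the other days. With the floor at 3 SD, which held 1 plastic and 2 crECM values, its crECM mean was 2.19-fold that on plastic (log2 1.13), which is no bound.

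**Figure D1:**
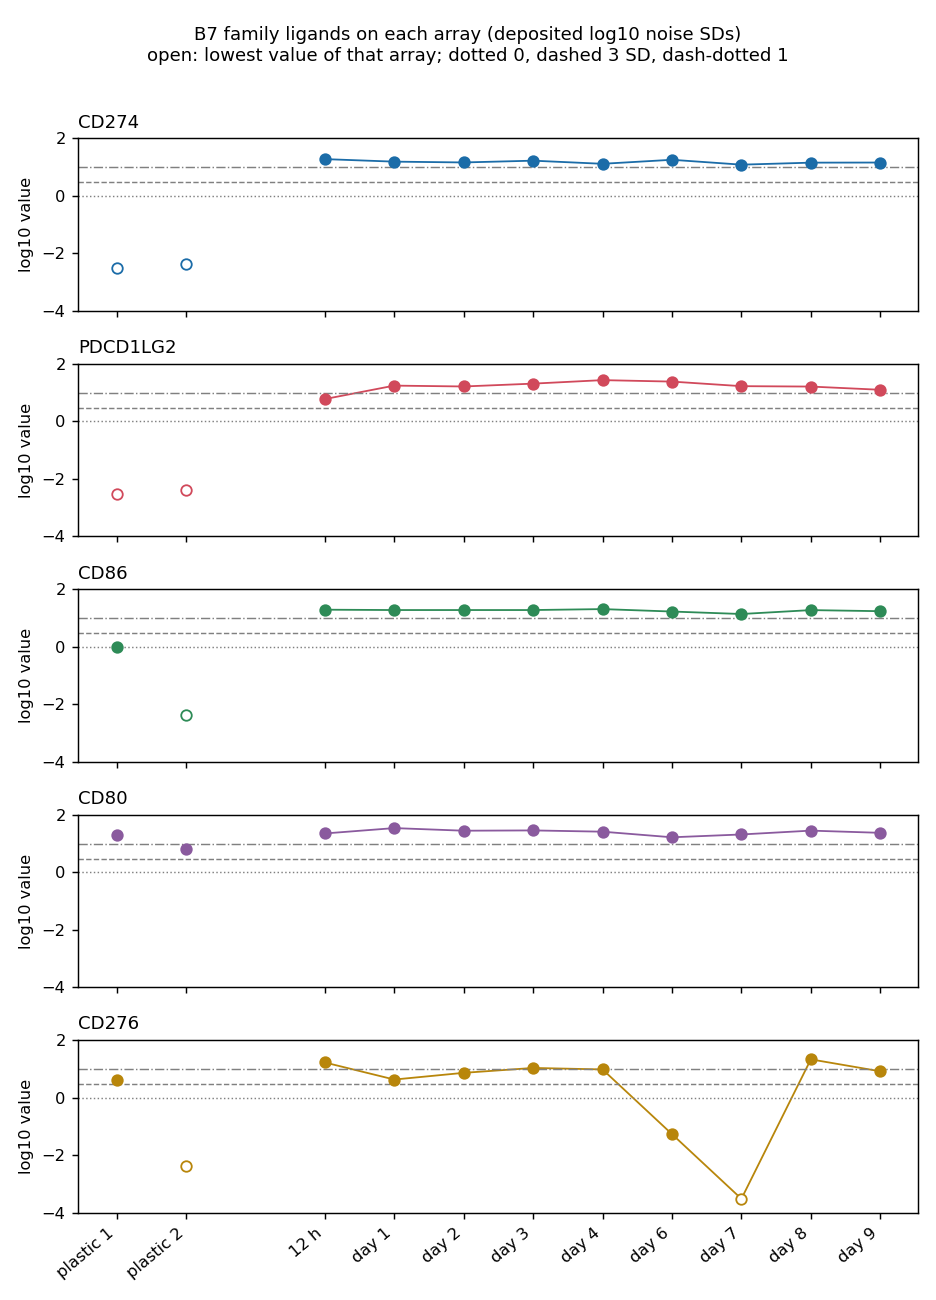
Deposited log10 value (SDs of the noise peak) of each B7 ligand on the 2 plastic and 9 crECM arrays, 1 panel for each gene, with open circles for the lowest value of an array and lines at 0, at 3 SD and at 1. CD274, PDCD1LG2 and CD86 lie at or below 0.0025 on plastic and above 0.77 on crECM, CD80 is above 3 SD on all 11 arrays, and CD276 drops below 0 on days 6 and 7.

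By the thresholds of the off-on class, 3 of 5 members were off-on, CD274, PDCD1LG2 and CD86, where 3.97% of all probes were, a contrast the choice of the genes had used. The same 3 members had all crECM arrays above both plastic arrays, as had 21.5% of all probes. Without plastic replicate 2, 2 members remained off-on, where 2.74% of all probes were. CD86 left the class, since its value on the first plastic array was just above 0. Just inside the threshold on crECM, CD274 had a mean of 1.18, and PDCD1LG2 had 1.21. Outside it, CD276 was below 0 on plastic with a mean of -0.89 but reached 0.245 on crECM, and CD80 had means of 1.05 on plastic and 1.40 on crECM.

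The size of these differences depended on how the arrays were set against each other. The deposited values had been adjusted by regression, and the median of all probes moved by 0.057 (log2) between plastic and crECM. With raw intensities turned into SDs above the zero point with no regression, the median of all probes was 1.07 higher on crECM. CD274 was then 1.28, PDCD1LG2 1.43, CD86 1.49, CD80 1.70 and CD276 0.667 higher on crECM (log2). Relative to that median, CD274 was 0.214, PDCD1LG2 0.361, CD86 0.421 and CD80 0.638 higher, while CD276 turned to -0.40, below it. No member was off-on on that scale, where 1% of all probes were. CD274 on crECM then lay between 4.33 and 9.85 SD and CD86 between 4.96 and 11.5 SD. PDCD1LG2 lay between 1.57 and 11.6 SD, with its 12 h value under the 3 SD noise threshold. With quantile normalization the differences were 1.14 for CD274, 1.25 for PDCD1LG2, 1.38 for CD86, 0.717 for CD80 and 0.498 for CD276. The median of all probes was -0.0027, and no member was off-on, where 0.165% of all probes were.

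Ranks within each array do not depend on such scaling by a single rising function. CD274 stood at 6.38% and 6.49% of the ranked raw intensities on plastic and at 24.3% to 40.5% on crECM. PDCD1LG2 stood at 5.0% to 10.1% on plastic and 18.0% to 63.1% on crECM, and CD86 went from 6.53% and 11.3% to a range of 30.4% to 42.1%. For these 3 members no crECM array overlapped plastic in rank, as for 18.3% of all probes. On raw intensities all 5 members had every crECM array above both plastic arrays, and so had 54.9% of all probes. CD80 ranked at 20.5% and 47.2% on plastic against 32.6% to 81.1% on crECM, and CD276 at 10.3% and 15.3% against 6.80% to 44.0%, so that both overlapped. CD274 and CD86 were therefore dim probes on every array, in the lower part of the intensities on crECM too.

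**Figure D2:**
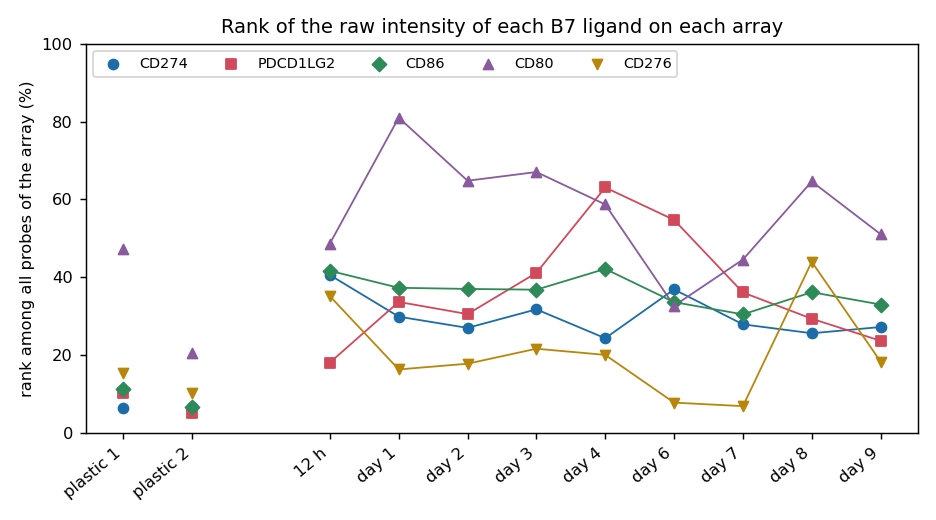
Rank of the raw intensity of each B7 ligand among all probes of an array (%, 100 is the brightest), for the 2 plastic and 9 crECM arrays. CD274, PDCD1LG2 and CD86 stay at or under 11.3% on plastic and at or above 18.0% on crECM, while CD80 and CD276 overlap between the surfaces.

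Within the crECM series, the 12 h array was compared with the mean of the 8 later arrays by limma over all probes. A single array has no spread of its own and was given that of the rest. PDCD1LG2 was lower at 12 h, at 5.99 SD against 18.5 SD on the later days. All 8 later arrays were above it, and the later mean was 3.09-fold higher (95% interval 1.76 to 5.42, log2 -1.63 for 12 h minus later, standard error 0.36, adjusted p = 0.036 from limma). With a single array at 12 h, a difference at that time and the error of that array cannot be told apart. On these terms 1 of 5 members was called lower at 12 h, where 2.33% of all probes were, and 0 were called higher, where 2.03% were. No other member had an unadjusted p under 0.05 by limma in this comparison. With quantile normalization the call was lost (log2 -1.18, adjusted p = 0.12), and over the alternatives the adjusted p lay between 0.018 and 0.12. With no regression the log2 difference was -1.60 while the median of all probes was -0.69, the 12 h array having the lowest median raw intensity on crECM. On that scale PDCD1LG2 was at 1.57 SD at 12 h, under the 3 SD noise threshold, and was set to the floor. The day 7 array, of similar brightness with a median of 250 (raw), had a PDCD1LG2 intensity of 187 against 88.8 at 12 h.

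The other members were not called between 12 h and the later days. For CD274 the log2 difference was 0.36 (95% interval -0.19 to 0.92, adjusted p = 0.49 from limma), and none of the 8 later arrays was above the 12 h array. For CD86 it was 0.12 (-0.39 to 0.63, adjusted p = 0.84) and for CD80 -0.17 (-0.87 to 0.54, adjusted p = 0.84). The intervals leave room for differences of up to 1.89-fold in CD274 and 1.55-fold in CD86. For CD276 it was 1.28 with an interval of -0.75 to 3.31 (adjusted p = 0.51), the widest of the 5. With no regression the sign of CD274 turned to -0.50, of CD86 to -0.69 and of CD276 to -0.03, each at or above the median of all probes on that scale.

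**Figure D3:**
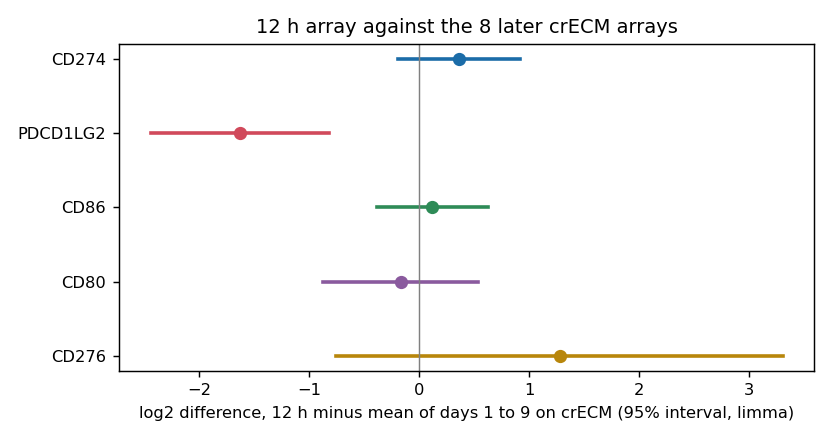
Log2 difference of the 12 h array from the mean of days 1 to 9 on crECM for each B7 ligand (points, deposited values with a floor of 3 SD) with 95% intervals from limma (lines). The interval of PDCD1LG2 lies below 0, from -2.44 to -0.81, and those of the other 4 members include 0.

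A steady trend over log2 of the day was not called for any of the 5 members, and limma called 0.00504% of all probes. Each doubling of the time went with a log2 change of 0.23 in PDCD1LG2 (adjusted p = 0.76, unadjusted p = 0.089 by limma), but -0.053 without the 12 h array, so that the value rests on that array. The slopes of CD274, CD86, CD80 and CD276 were -0.079, -0.057, -0.074 and -0.13, with adjusted p-values of 0.85, 0.88, 0.88 and 0.95. PDCD1LG2 was highest on day 4 and lower at each harvest after it than at the one before, but with 1 array a day this order could not be tested.

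Of 14 relatives on the array, other B7 and butyrophilin genes, 0 were off-on, where 3.97% of all probes were, a count too small to set the relatives apart. Of these, 13 were tested. At an adjusted p under 0.05 from limma, crECM had higher values of 3 and lower values of 5, where among all probes 22.8% were higher and 22.4% lower, with a median log2 change of -0.029 against 0.057 for all probes. BTN3A1, a butyrophilin that gamma delta T cells read, rose 1.89-fold (log2 0.92, adjusted p = 0.002 from limma). HHLA2, a B7 ligand of epithelia, was at 0.856 and 1.01 (log10) on plastic and at or below 0.421 on crECM. BTN1A1 was at 0.739 and 0.959 on plastic and at or below 0.541 on crECM, and BTNL2 was at 0.742 and 0.536 on plastic and at or below 0.412 on crECM. All 3 passed the filter through plastic, with crECM values at or close to the floor, so that their p-values, set by the floor, are not given although they are counted among the lower genes. With no regression none of these 3 exceeded 3 SD on 2 or more arrays. BTNL9, named after its values were seen, was under 3 SD on both plastic arrays (0.228 and 0.246) with a crECM median of 1.20, and lay at -3.52 on day 7. With the floor at 3 SD, which held both plastic values and the day 7 value, its crECM mean was 4.19-fold that on plastic, which is no bound. BTNL9 passed the filter through crECM, so no p is given although it is counted among the higher genes. Its call was lost with either plastic array left out. ICOSLG, the ligand of ICOS, was at 0.838 and 0.472 on plastic, but from -0.021 to 0.338 on crECM, too low to be tested. VTCN1 (log2 0.65, adjusted p = 0.24) and VSIR (-0.22, adjusted p = 0.18), 2 inhibitory relatives, did not pass. With either plastic array left out fewer relatives were called, HHLA2 and BTNL2 no longer passed the filter, and BTN3A1 kept its call.

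Of 20 tested ligands of other T cell and NK cell receptors, 3 rose, 1 fell and 16 did not pass, with a median log2 change of 0.15. Among all probes 22.8% were higher and 22.4% lower. ULBP2, a stress ligand of the NKG2D receptor, rose 1.70-fold (adjusted p = 0.0089 from limma), and FGL1, a ligand of LAG3, rose 1.68-fold (adjusted p = 0.012). MICB, which NKG2D also binds, fell 1.40-fold (log2 -0.49, adjusted p = 0.018). With no regression MICB was higher on crECM by 0.598 (log2), or -0.47 relative to the median of all probes. FGL1 lost its call with either plastic array left out (adjusted p = 0.07 without replicate 1 and 0.11 without replicate 2), ULBP2 without replicate 1 (0.18) and MICB without replicate 2 (0.30).

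Of 15 partners of the ligands on T cells, 15 were above 3 SD on both plastic arrays and 13 on all crECM arrays. On single arrays 83.9% to 86.6% of all probes were above 3 SD. Of these 15 receptor genes 6 rose, 3 fell and 6 did not pass, where 22.8% of all probes were higher and 22.4% lower. Their median log2 change was 0.30. CD28 was at 1.42 and 1.27 (log10) on plastic and at 1.23 to 1.60 on crECM and did not pass (log2 0.18, adjusted p = 0.66 from limma). CTLA4 was at 0.776 and 0.952 on plastic and below 0 on every crECM array. TNFRSF18 was at 0.815 and 0.837 on plastic and at or below 0.597 on crECM. Both passed the filter through plastic with crECM values at or close to the floor, so no p is given for them. With no regression neither CTLA4 nor TNFRSF18 exceeded 3 SD on 2 or more arrays. HAVCR2 fell 1.41-fold (adjusted p = 0.0011), but was 0.618 higher (log2) with no regression, or -0.45 relative to the median of all probes. CD27 rose 2.80-fold (adjusted p = 2.4e-04), TMIGD2, a receptor of HHLA2, 2.08-fold (adjusted p = 0.0092) and KLRK1, which encodes NKG2D, 1.64-fold (adjusted p = 0.013). With either plastic array left out fewer receptors were called, TMIGD2 and KLRK1 lost their calls, and CTLA4 no longer passed the filter. PDCD1, the receptor of CD274 and PDCD1LG2, is not analysed here, as no probe carries its symbol alone.

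Leukocyte markers were called in part. Of 17 such genes tested, 6 were higher and 1 lower on crECM, where 22.8% of all probes were higher and 22.4% lower. Their median log2 change was 0.68 against 0.057 for all probes. With no regression the median was 1.13 against 1.07 for all probes, and with quantile normalization 0.17 against -0.0027. The T cell gene CD3E rose from 0.725 and 0.707 to between 1.43 and 1.57 (log10), and CD3D from the lowest value of either plastic array to between 0.715 and 1.17. The common leukocyte antigen PTPRC was at 1.51 and 1.53 on plastic and at 1.41 to 1.52 on crECM and did not pass. The summed level of the markers was 338 to 355 SD on plastic and 411 to 487 SD on crECM. Fewer were called with either plastic array left out, where the log2 change of CD3E was 2.67 without replicate 1 and 2.61 without replicate 2. Both plastic values of CD3D were at the floor and it passed the filter through crECM, so no p is given for it. All arrays held RNA of the RT4 line, with no leukocytes described in the cultures, and the source of the signal in these probes was not tested.

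Interferon gamma signaling is the main inducer of CD274. Of 18 of its genes tested, 3 rose, 4 fell and 11 did not pass, with a median log2 change of 0.14, and these counts are close to the shares of 22.8% higher and 22.4% lower among all probes. JAK2, a kinase of the receptor, fell 2.03-fold from 1.78 and 1.72 to between 1.36 and 1.53 (log10, adjusted p = 1.6e-04 from limma). JAK1, the other kinase, named after its values were seen, was at 1.46 and 0.39 on plastic, with a crECM range of 1.29 to 1.79. With plastic replicate 2 under the floor, its fold of 3.22 on crECM is a lower bound. JAK1 passed the filter through crECM, so no p is given although it is counted as higher. The fold rests on plastic replicate 2, without which the log2 change was 0.056. The receptor chain IFNGR2 was at 0.857 and 0.898 on plastic and at or below 0.502 on crECM, and the induced chemokine CXCL9 was at 0.827 and 0.897 and at or below 0.552. Both are counted as lower with crECM values at or close to the floor, so no p is given. With no regression neither IFNGR2 nor CXCL9 exceeded 3 SD on 2 or more arrays. GBP1, an induced GTPase, rose 1.52-fold (adjusted p = 0.005), and SOCS3, a feedback inhibitor, rose 1.33-fold (adjusted p = 0.026). Neither GBP1 nor SOCS3 was called without plastic replicate 1 (adjusted p = 0.055 and 0.082) or without plastic replicate 2 (0.052 and 0.26), while JAK2 stayed called in both cases. IRF1, which binds the ISRE, was at 1.33 and 1.39 on plastic, with a crECM range of 1.11 to 2.15, highest on day 4, and did not pass (log2 0.38, adjusted p = 0.64).

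Among 16 genes that set the level of PD-L1, 2 rose, 3 fell and 11 did not pass, with a median log2 change of -0.20. Of all probes 22.8% were higher and 22.4% lower. MYC, which activates CD274 transcription, rose 2.45-fold (adjusted p = 0.002 from limma). CMTM6, which protects PD-L1 protein from breakdown, fell 1.66-fold (adjusted p = 0.0026), and its relative CMTM4 fell 1.91-fold (adjusted p = 0.037). BTRC, part of a ligase that degrades PD-L1, fell 1.33-fold (adjusted p = 0.021). CMTM6 and BTRC have 2 probes each, and only the probe with the higher mean is given. Of these 4 genes CMTM6 kept its call with either plastic array left out, the adjusted p of MYC being 0.06 without replicate 2, and those of CMTM4 and BTRC 0.17 and 0.12 without replicate 1. With no regression CMTM6, CMTM4 and BTRC were 0.068, 0.186 and 0.414 higher on crECM (log2), or -0.998, -0.88 and -0.65 relative to the median of all probes. Only mRNA was measured, so the protein level of the ligands is not known from these arrays.

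**Figure D4:**
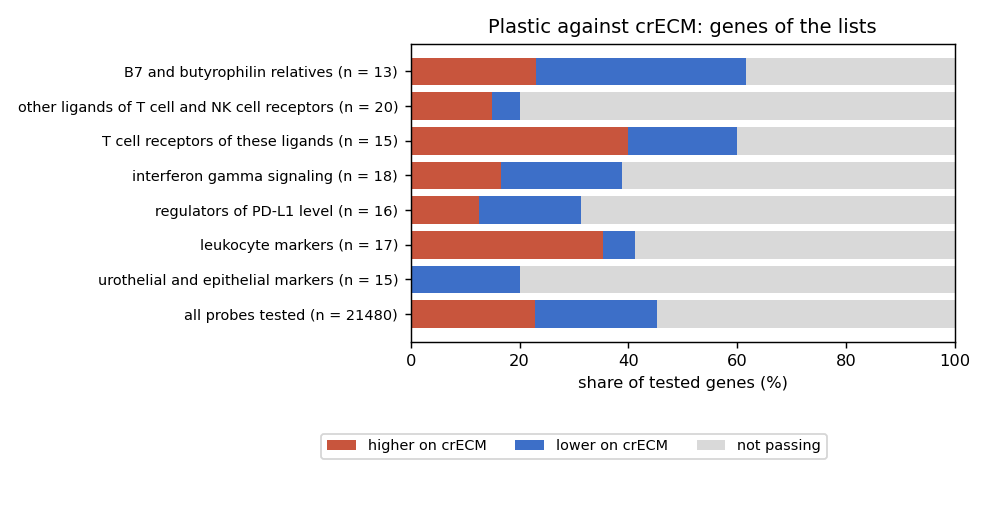
Share of the tested genes (%) of each list that were higher on crECM, lower on crECM or not passing by limma at an adjusted p under 0.05, with the number tested and all probes at the bottom. Of the 13 relatives of the B7 ligands 3 were higher and 5 lower, and of 17 leukocyte markers 6 were higher and 1 lower. Of 15 urothelial and epithelial markers 0 were higher and 3 lower, among them KRT13 and KRT20 with crECM values at or close to the floor. The other was CDH1 (log2 -1.11), above 3 SD on all arrays and not called with either plastic array left out. With no regression CDH1 was at -0.0066 (log2), or -1.07 relative to the median of all probes. Among all probes 22.8% were higher and 22.4% lower.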

How the data were processed

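RNA of RT4 cells, on 2 arrays for plastic and 9 for crECM, was measured as Cy3-labeled cDNA on spotted arrays of long oligonucleotides, 1 color to each array. For every array the authors deposited a raw intensity per probe, background treatment not stated. They also deposited log10 values in SDs of the noise peak, which the authors had brought onto a common scale with a robust linear fit between arrays. Of 22464 probes, 17043 had 1 gene symbol, 172 several and 5249 none in the platform annotation, and 16952 were matched by gene identifier to GRCh38.p14 names, which changed 0 symbols. Symbols thus follow the platform annotation.

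The log10 values were taken unchanged. Tests used limma 3.58.1 in R 4.3.3 (lmFit, eBayes with a trend) on log2 of the antilog values with a floor of 3 SD, over the probes that exceeded 3 SD on 2 or more arrays, with Benjamini-Hochberg adjustment over all such probes. A fold is a lower bound where a whole group, or 1 plastic array, lies at the floor and no array of the other group does. Standard errors can then be small. For rebuilt values the zero point of an array was the raw intensity that best separated probes at the lowest deposited value from the rest (3.6 and 1.5 on plastic, 28.1 to 62.2 on crECM). The noise SD was the distance below it that holds the share of a normal distribution within 1 SD (38.4 and 42.2, and 26.0 to 37.2). The test script was checked on simulated data. Python 3.11.15, numpy 2.4.6, pandas 2.3.3, scipy 1.17.1 and matplotlib 3.10.9 were used for counts, ranks and figures.

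The members, the lists and the tests were chosen with earlier results of these data known. Named were all members, at most 3 risers and 3 fallers from a list other than the marker lists (adjusted p under 0.05, all crECM arrays on 1 side of both plastic arrays), a few direct receptors, relatives and interferon genes, and for each member the 3 genes most correlated with it. A gene with several probes was represented by the one with the highest mean. The lists were B7 and butyrophilin relatives, other ligands of T cell and NK cell receptors, receptors of T cells, interferon gamma signaling, regulators of PD-L1 level, leukocyte markers, and urothelial and epithelial markers. Promoters came from RefSeq. The number of arrays limits the precision. Alternatives were no regression, quantile normalization, floors of 1 and 5 SD, no filter, eBayes without trend, leaving out single arrays, other class thresholds, mean of antilog values, slope on the day and every probe of a gene.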

Additional observations from a re-analysis of the deposited data

Results flagged for a closer look

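CD86 on day 7 lay apart from the other crECM arrays. Its log10 value of 1.142 was the lowest of the 9, and its gap to the next lowest array was 0.499 of the whole range, where 0.493 is the limit for 9 arrays. The 5 members were examined on both sides, 1 value was beyond the limit, and chance takes about 1 group in 20 past it. The day 7 array also gave the lowest CD274 value, 1.09, and the lowest median of all off-on probes, 1.07 against 1.10 to 1.25 on the other crECM arrays. Whether the array as a whole accounts for the CD86 value was not tested. The low PDCD1LG2 value at 12 h, with a gap of 0.491, stayed just within the limit.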

How the results depend on the processing

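The count of probes called between plastic and crECM, 9716, fell to between 3892 and 5045 when 1 plastic array was left out, the other then being assumed to vary like the crECM arrays. Of the calls 50.4% were higher on crECM with the deposited values and 99.4% with no regression (13876 higher and 80 lower), 61.9% without plastic replicate 1 and 62.5% without plastic replicate 2. Calls of the 12 h array numbered 866, and 1398 with no filter, 518 with quantile normalization and 6006 with no regression. The trend over days had 1 call, 3 with quantile normalization, 76 with no regression, and 0 with eBayes without trend (1417 at an unadjusted p under 0.05 by limma), with the slope on the day (756) or without the 12 h array (1041). Off-on members numbered 3, and 0 with no regression or with quantile normalization. The share of all probes that were off-on was 3.97%, and 1% with no regression and 0.165% with quantile normalization. Of 113 list genes tested 43 were called, 80 with no regression and between 15 and 21 without 1 plastic array. For these settings the cause was not tested, other than that fewer arrays leave less power. Among the results for single members no sign turned in a called value, and the PDCD1LG2 difference at 12 h lost its call with quantile normalization (-1.18, adjusted p = 0.12). The floored log2 difference of CD80 was 0.30 without plastic replicate 2 and 1.98 without plastic replicate 1. No paired analysis was possible because the surfaces share no replicate numbers in the labels. CD274, PDCD1LG2 and CD86 lay at or near the noise on plastic, which limits their folds to lower bounds.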

Other observations

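CD274 and PDCD1LG2 lie next to each other on chromosome 9, with 0 protein-coding genes between them in the gene order of GRCh38.p14. Of their 5 nearest array genes on each side, examined after the member values were seen, 2 of 10 were off-on, where 3.97% of all probes were. On crECM 3 were higher, 1 was lower and 6 did not pass by limma, where 22.8% of all probes were higher and 22.4% lower. Those higher lay on the side before CD274 and were relaxin-like hormone genes. INSL6 was at the lowest value of both plastic arrays and between 0.802 and 1.32 (log10) on crECM, an off-on gene that was at least 4.51-fold higher. INSL6 passed the filter through crECM with both plastic values at the floor, so no p is given although it is counted as higher. RLN2 was off-on as well, at -2.51 and 0.631 on plastic, with a crECM range of 0.459 to 1.29 and overlapping groups. RLN2 too passed the filter through crECM, with its lowest plastic and crECM values under the floor. No p is therefore given for its log2 change of 1.89, although it is counted as higher. It was not called with either plastic array left out. INSL4 rose 3.25-fold (adjusted p = 7.7e-05). RLN1 and RLN2 are close paralogs whose probes may share signal. RLN1 did not pass (log2 0.88, adjusted p = 0.17), nor did PLGRKT, the nearest array gene before CD274 (log2 -0.14, adjusted p = 0.59). On the other side MLANA fell 1.52-fold (adjusted p = 0.0023), but was not called without plastic replicate 1 (adjusted p = 0.076) and was 0.474 higher with no regression, or -0.59 relative to the median of all probes, and RIC1, ERMP1, RANBP6 and IL33 had log2 changes between -0.10 and 0.080. With no regression INSL6 and RLN2 were 0.099 and 0.057 above the median of all probes.

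The 3 genes most like CD274, PDCD1LG2 and CD86 over the 11 arrays were, other than TULP3, at the floor on both plastic arrays. For CD274 they were COPZ2, ACSS3 and YPEL1 (Pearson r = 0.992, 0.992 and 0.992 of floored log2 values over 11 arrays), and r was 0.762, 0.795 and 0.740 over the 9 crECM arrays alone. For PDCD1LG2 they were ACAP1, TULP3 and UBE3A (r = 0.982, 0.978 and 0.977), with 0.925, 0.916 and 0.938 on crECM alone. For CD86 they were RPP25, PTPRK and PIGL (r = 0.997, 0.995 and 0.995), with 0.852, 0.767 and 0.710 on crECM alone. For CD80 they were NPTX1, GALNT11 and ABRA (r = 0.968, 0.962 and 0.950), with 0.841, 0.808 and 0.713 on crECM alone. For CD276 they were C20orf204, NPHP4 and SLC13A4 (r = 0.938, 0.928 and 0.924), with 0.935, 0.915 and 0.911 on crECM alone. The points share arrays and the step between the surfaces, and genes picked for a high r will show one.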
